A study of Mus musculus with 9 samples.

Results

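The alpha and beta crystallins are a group of 8 genes, *Cryaa*, *Cryab*, *Cryba1*, *Cryba2*, *Cryba4*, *Crybb1*, *Crybb2* and *Crybb3*, chosen by name and not by any measured value. Of these, 7 were found, with 1 entry each, among the 15820 entries with a gene symbol in a table of 22013 entries. They comprised 1 alpha crystallin and 6 beta crystallins. *Cryaa* was not matched to an entry by its symbol and was not analysed here. All 7 passed the filter on low values, with no value below 1 in any library.

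RNA was sequenced from mouse embryonic lenses at E16.5 in 3 genotypes with 3 libraries each, and each library pooled 8 lenses. Control lenses were *Mafg*+/-:*Mafk*+/-, compound KO lenses were *Mafg*-/-:*Mafk*+/- and double KO lenses were *Mafg*-/-:*Mafk*-/-. All alleles were germline knockouts, mice were kept on an ICR background unless otherwise stated, and every embryo carried at least one knockout allele of each gene, so no wild-type lens was compared. The comparisons ask how the loss of these small Maf transcription factors alters lens gene expression. The libraries are named as biological replicates without their litters being given, so the p-values measure the spread between these samples.

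Crystallins are the soluble proteins that fill lens fiber cells and give the lens its transparency and refractive power. Alpha crystallins belong to the small heat shock proteins and act as chaperones that hold unfolding proteins in solution. Beta crystallins are structural proteins that assemble into oligomers and are grouped into an acidic (Cryba) and a basic (Crybb) branch. Many crystallin genes are activated by the large Maf protein encoded by *Maf*, which binds Maf recognition elements. The small Maf proteins Mafg and Mafk bind related elements as dimers with other bZIP factors and have no activation domain of their own.

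The promoters of the group were examined for short motifs that Maf proteins and their partners are known to bind. Windows from 250 bases before to 50 bases after the RefSeq transcription start were present for 7 of the 8 genes (all but *Cryab*). TGCTGA, the half-site of a Maf recognition element, was present on either strand in 6 of the 7 windows and in 19.5% of 32851 promoter windows of the same length. TGACNNNGC, the core of the element bound by dimers of a small Maf and a Cap'n'Collar or Bach factor, was present in 4 of 7 windows and in 12.4% of all windows. Both patterns share the letters TGA, and they overlapped each other in the windows of *Crybb1*, *Cryba1* and *Cryaa*. A single window, that of *Cryba2*, held TGACTCAGC, a form of the second pattern found in 0.454% of all windows. Of the other motifs searched, ACAAT, a core bound by Sox factors, was present in 3 of 7 windows and 31.0% of all. GAANNTTC, a pair of units of the heat shock element, was present in 0 of 7 and 7.86% of all. A match describes the letters of the window and is not evidence of binding.

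The 4 windows printed here show the range within the group, with matches to TGCTGA or TGACNNNGC on either strand in capitals and the sequence written 5′ to 3′ on the strand of the gene. The sequences are from RefSeq (GRCm38.p6) and were placed on GRCm39 by an exact match, 1 for each window. *Cryba2* (chr1:74932253-74932552, minus strand) held 3 matches to TGACNNNGC, at −188, −105 and −59 bases from the start, and 1 to TGCTGA on the reverse strand at −149. *Crybb1* (chr5:112403436-112403735, plus strand) held a half-site at −84 that ran into TGACCCAGC at −81. *Cryba4* (chr5:112400335-112400634, minus strand) held the half-site 3 times, at −182, −135 and −77, and no TGACNNNGC. *Crybb2* (chr5:113217934-113218233, minus strand), the gene with the lowest level of the group, held neither.
Cryba2: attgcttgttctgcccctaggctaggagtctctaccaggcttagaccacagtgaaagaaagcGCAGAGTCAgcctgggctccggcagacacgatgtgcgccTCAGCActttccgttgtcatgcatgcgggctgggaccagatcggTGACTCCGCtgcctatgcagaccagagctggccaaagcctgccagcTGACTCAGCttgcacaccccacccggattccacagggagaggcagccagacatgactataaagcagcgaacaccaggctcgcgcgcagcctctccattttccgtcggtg
Crybb1: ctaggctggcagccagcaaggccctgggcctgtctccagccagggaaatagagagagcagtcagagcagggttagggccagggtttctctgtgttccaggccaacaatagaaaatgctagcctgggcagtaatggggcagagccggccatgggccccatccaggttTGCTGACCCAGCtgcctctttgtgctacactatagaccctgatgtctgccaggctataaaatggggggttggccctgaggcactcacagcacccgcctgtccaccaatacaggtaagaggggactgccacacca
Cryba4: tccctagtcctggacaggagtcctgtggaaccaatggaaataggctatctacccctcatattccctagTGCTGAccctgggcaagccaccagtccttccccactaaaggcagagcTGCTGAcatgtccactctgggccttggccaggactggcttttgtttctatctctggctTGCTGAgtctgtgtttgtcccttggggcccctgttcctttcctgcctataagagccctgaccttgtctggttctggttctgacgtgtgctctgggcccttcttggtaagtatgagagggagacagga
Crybb2: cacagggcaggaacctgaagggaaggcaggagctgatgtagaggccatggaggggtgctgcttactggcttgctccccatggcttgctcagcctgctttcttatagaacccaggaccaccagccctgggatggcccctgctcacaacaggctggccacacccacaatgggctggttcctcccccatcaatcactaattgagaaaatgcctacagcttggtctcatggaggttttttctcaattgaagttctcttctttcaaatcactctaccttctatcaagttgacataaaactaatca

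Of the group, 4 genes lie on chromosome 5 of GRCm39, which is the assembly also named mm39 that was used for the alignment. *Cryba4* (112394359 to 112402226, minus strand) and *Crybb1* (112400811 to 112417965, plus strand) overlap by 1416 bases at the outer ends of their annotated transcripts, of which 100 bases are exonic in both. *Crybb2* (113206124 to 113217983) and *Crybb3* (113223705 to 113229450) follow each other on the minus strand with 5721 bases between them. *Mafk* lies on the same chromosome, 26.5 Mb from *Crybb3*. *Cryba1* (chromosome 11, 77609441 to 77616120, minus strand) lies 42.9 Mb from *Mafg*. *Cryba2* is on chromosome 1 (74929093 to 74932302, minus strand) and *Cryab* on chromosome 9 (50651859 to 50668567, plus strand). *Hspb2*, another small heat shock protein gene, lies within *Cryab* on the opposite strand and shares 757 exonic bases with it. The libraries were strand-specific, but the strand setting of the counting is not given in the sources used here, so reads of these 2 overlapping pairs may have been shared.

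Values are the authors' normalized CPM, that is, reads of an entry as a rate of all reads in the library, adjusted by a composition factor. The libraries' totals lay between 728036 and 1131184 and are a product of the scaling, so the sequencing depth is unknown. *Mafg* was at 122.7 ± 10.9 (SD, n = 3) in control, 18.4 ± 7.35 in compound KO and 24.0 ± 2.55 in double KO lenses, and *Mafk* was at 5.70 ± 0.557, 4.80 ± 0.5 and 0.300 ± 0.300, in the order that the labelled genotypes give. Markers of lens fiber cells (12 of 13 found) summed to between 14387 and 20631 in 8 libraries. Markers of lens epithelium (all 10 found) summed to between 1141 and 1341 in the same 8. Compound KO replicate 1 stood apart. Its epithelium markers summed to 1945, of which *Ccnd1* held 1094.3. In it *Cdh1*, *Foxe3*, *Npnt* and *Pdgfra* were the lowest of the 9 libraries, and *Pax6*, *Gja1*, *Cryl1*, *Mki67* and *Ccnd1* the highest. Its fiber markers summed to 6341, while its periocular mesenchyme and fibroblast markers (all 10 found) summed to 2480, against at most 306.5 in any other library. Its markers of retinal pigment epithelium (708.5 against at most 56.1), neural retina (836.8 against at most 247.7), skeletal muscle (386.2 against at most 90.1) and surface epithelium (298.6 against at most 10.2) were also the highest of the 9. Its total was also the lowest. Fold changes of the compound KO against control are therefore given with and without it. Markers of other tissues were still higher than in control without it. None of the 10 neural retina markers tested had a log2 fold change below 0 (median 1.21). The same held for the 9 mesenchyme and fibroblast markers (median 0.87) and the 6 skeletal muscle markers (median 1.54) tested. The median of all genes was 0.01.

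**Figure D1:**
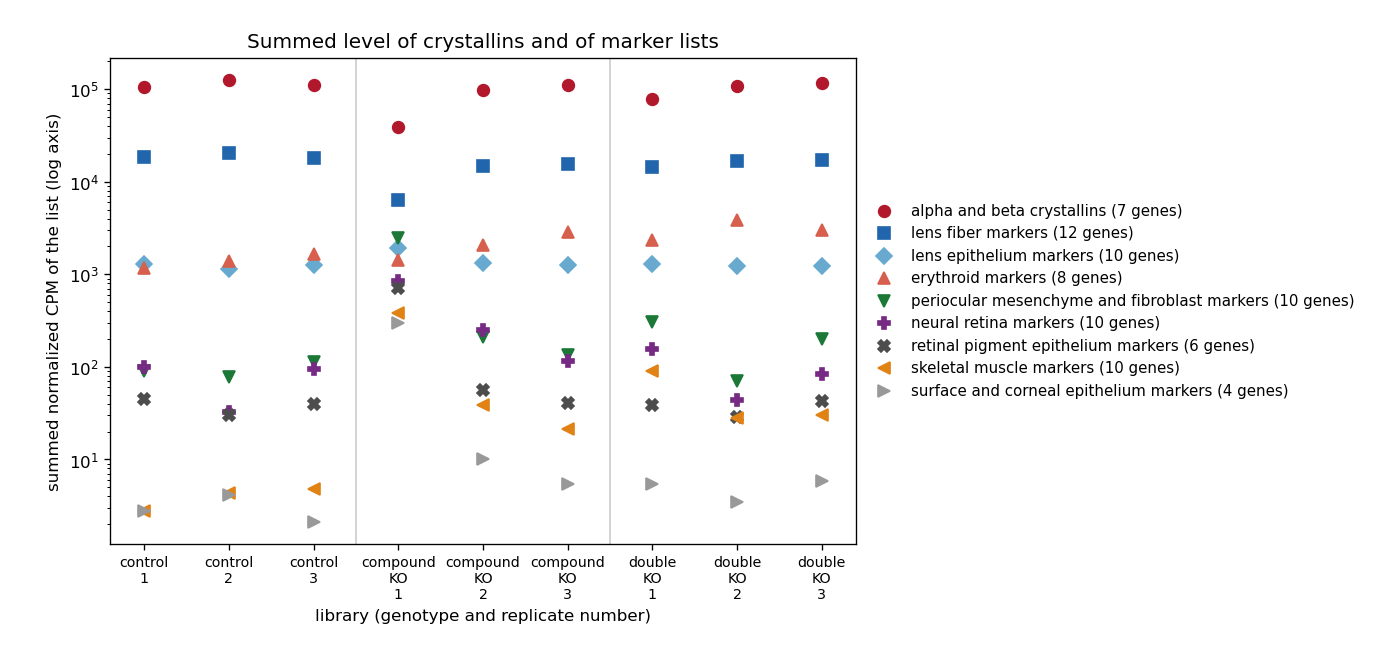
Summed normalized CPM of the crystallins and of 8 marker lists in each of the 9 libraries, on a log axis. In compound KO replicate 1 the crystallin sum (38816) and the fiber marker sum (6341) were the lowest of the 9 libraries, and the mesenchyme, retina, pigment epithelium, muscle and surface epithelium sums were the highest.

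All members found except *Crybb2* were among the most abundant entries with a symbol, by mean over the 9 libraries. By mean value over the 9 libraries, *Cryba1* ranked 1 and *Crybb1* ranked 2 of the 15820 entries with a symbol, *Cryba2* ranked 6, *Cryba4* 14, *Crybb3* 20 and *Cryab* 23. *Crybb2*, which encodes a beta crystallin that builds up mainly after birth, ranked 6546. These ranks leave out entries without a symbol, of which 1 had a higher mean than *Cryba1* (121640 over the 9 libraries) and 2 had a higher mean than *Crybb1*. Their genes are not named in the table, so the ranks and the share held by the group do not include any crystallin among them. The 7 genes together held 10.2%, 11% and 10.3% of the total in the control libraries. They held 5.33%, 9.81% and 10.7% in the compound KO libraries and 7.95%, 10.5% and 10.7% in the double KO libraries. The groups overlapped, and the lowest shares were those of compound KO replicate 1 and double KO replicate 1. *Cryba1* alone made up 52.1% ± 2.01 (SD, n = 3) of the sum in control lenses and *Crybb1* 32.05% ± 1.47.

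Levels per length were ordered with some ties. Per kilobase of merged exons, control lenses had 36661 ± 1852 normalized CPM (SD, n = 3) of *Cryba1*, 8403 ± 1137 of *Crybb1* and 8350 ± 928 of *Cryba2*. The libraries of *Crybb1* and *Cryba2* overlapped on this scale. *Crybb3* followed at 1375 ± 275, then *Cryab* at 627 ± 85.4 and *Cryba4* at 619 ± 269, which overlapped each other, and *Crybb2* at 8.33 ± 1.93. With the canonical transcript as the length, *Crybb1* (26040 ± 3523) and *Cryba2* (13835 ± 1537) no longer overlapped, while *Cryba4* (2543 ± 1105) overlapped both *Crybb3* (3876 ± 776) and *Cryab* (1631 ± 222). Per kilobase of merged exons, the order of *Crybb1* and *Cryba2* was the other way round in double KO lenses (*Cryba2* at 9127 ± 693, *Crybb1* at 7457 ± 746, without overlap) and in compound KO lenses (7035 ± 3199 and 5743 ± 2614, with overlap). This turn depended on the length used. Per kilobase of canonical transcript, *Crybb1* stayed above *Cryba2* in double KO lenses (23109 ± 2312 and 15123 ± 1148, without overlap). The same held in compound KO lenses (17797 ± 8101 and 11656 ± 5301, with overlap). The entries are transcript-level, and which transcript each one stands for is not given in the sources used here.

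**Figure D2:**
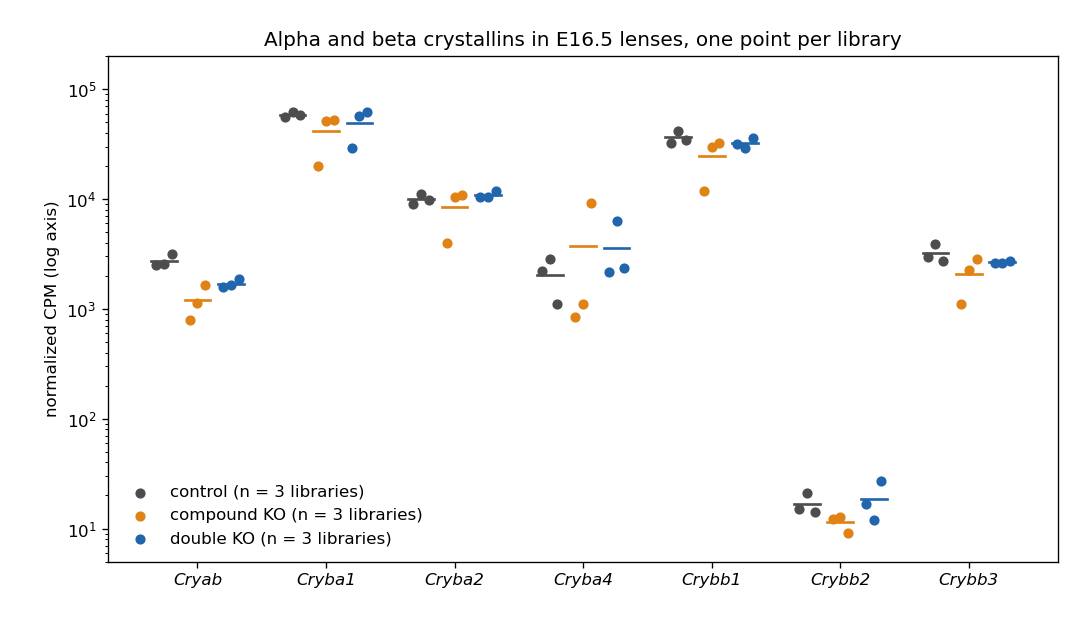
Normalized CPM of the 7 crystallins on a log axis, with 1 point per library and a line at the mean of each genotype (n = 3). *Cryab* was lower in all 6 knockout libraries (791.4 to 1869) than in the 3 control libraries (2534 to 3191). The control and double KO libraries of all 6 beta crystallins overlapped.

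*Cryab* encodes alpha B-crystallin, a chaperone that is also made in heart and skeletal muscle. It was at 2534, 2546 and 3191 normalized CPM in the control libraries and at 1571, 1649 and 1869 in the double KO libraries. All 3 double KO libraries lay below all 3 controls. The difference was 1.62-fold, with a log2 fold change of −0.70 (SE 0.12, 95% interval −0.99 to −0.40). It did not pass the adjusted threshold (limma, two-sided, unadjusted p = 0.00132, adjusted p = 0.143 over 14122 genes), at which 0.361% of the genes tested were called. By unadjusted p, *Cryab* ranked 130 of the 14122 genes. It was the single member of 7 past an unadjusted threshold (p up to 0.05, difference from 1.5-fold), which was met by 2.83% of all genes tested and by 1.24% with the double KO lower. It was also the single member whose libraries did not overlap between the groups, against 15.8% of all genes tested in either direction and 8.04% with the double KO lower.

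In the compound KO libraries, *Cryab* was at 791.4, 1124 and 1665. These also lay below all controls, and the library that stood apart was the lowest of them. The log2 fold change against control was −1.26 (SE 0.29, 95% interval −1.99 to −0.53, unadjusted p = 0.00575, adjusted p = 0.481 over 14348 genes, limma). Without compound KO replicate 1 it was −1.002 (SE 0.21, adjusted p = 0.264). The compound and double KO libraries overlapped, with a log2 fold change of 0.57 (SE 0.28, 95% interval −0.13 to 1.27, adjusted p = 0.665, limma) of double against compound KO, and of 0.31 without that replicate. Both knockouts were compared with the same 3 control libraries.

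Other measures moved beside *Cryab*. The fiber marker sum was between 18214 and 20631 in control and between 14387 and 17104 in double KO libraries, without overlap, but the sums of the 11 markers other than *Bfsp1*, which encodes a fiber cell filament protein, overlapped (13695 to 15111 and 11783 to 14030). Of the 12 fiber markers tested, 5 had a log2 fold change above 0 and 7 below, with a median of −0.12, and 3 lay below and 1 above all controls. Of all genes tested, 8.04% lay below all controls and 15.8% did not overlap in either direction. The epithelium marker sum overlapped (1141 to 1308 and 1225 to 1302). The markers of skeletal muscle, a tissue in which *Cryab* is also expressed, summed to 2.80 to 4.80 in control, 21.3 to 386.2 in compound KO and 28.0 to 90.1 in double KO libraries, with 4 of the 10 markers at 0 in at least 1 control library. The erythroid markers (all 8 found) summed to 1171 to 1640 in control, 1426 to 2839 in compound KO and 2340 to 3879 in double KO libraries. The part of these in the difference of *Cryab* was not tested, and in pooled lenses fewer cells of a type and less RNA per cell cannot be told apart. *Hspb2*, which shares exonic bases with *Cryab*, had a log2 fold change of −0.22 (SE 0.28, adjusted p = 0.853, limma) in double KO against control lenses.

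Set against *Crybb1* in the same library, which removes the scaling of the library, *Cryab* stood at 77.6, 60.7 and 92.5 per 1000 of *Crybb1* in control and at 49.7, 56.0 and 52.2 in double KO libraries, again without overlap. The difference of the mean log2 ratios was −0.53 (exact permutation test, two-sided, p = 0.1, the smallest that 3 against 3 libraries allow). In the compound KO libraries the ratio was 66.6, 37.4 and 51.0. Here the library that stood apart was within the control range, and the difference of −0.59 had an exact permutation p of 0.2. This ratio was chosen after the values were seen. *Crybb3* per 1000 of *Crybb1* was between 75.6 and 93.8 in all 9 libraries.

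**Figure D3:**
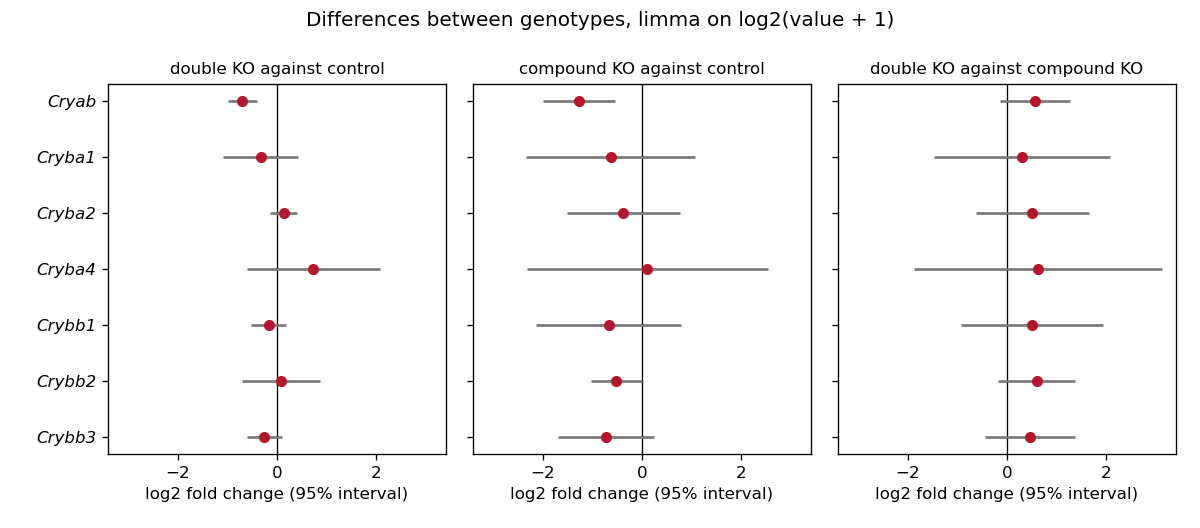
Log2 fold changes of the 7 crystallins with 95% intervals in the 3 comparisons (limma on log2 of the value plus 1, n = 3 libraries per genotype). The interval excluded 0 for *Cryab* in both comparisons with control and for no other member in any comparison, and no member passed the adjusted threshold.

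Among the acidic beta crystallins, *Cryba1*, from whose mRNA both the A3 and the A1 protein are translated, was at 55970, 61906 and 58647 in control libraries. It was at 29248, 57264 and 61430 in double KO libraries and at 20196, 51886 and 52557 in compound KO libraries. Double KO replicate 1 was low and the other double KO libraries lay within the control range, so the groups overlapped. The log2 fold change was −0.33 (SE 0.30, 95% interval −1.08 to 0.43, adjusted p = 0.783) in double KO against control lenses, and it was 0.01 without double KO replicate 1. Compound KO libraries lay below all controls, with a log2 fold change of −0.63 (SE 0.68, adjusted p = 0.655) that was −0.17 without compound KO replicate 1.

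*Cryba2*, another acidic member, was at 8979, 11160 and 9745 in control and at 10434, 10389 and 11843 in double KO libraries. The groups overlapped, and the log2 fold change of 0.13 (SE 0.11, adjusted p = 0.763, limma) had an interval of −0.14 to 0.40. The compound KO libraries were at 3993, 10366 and 10818. Only the library that stood apart was below the control range, and the log2 fold change against control turned from −0.37 (SE 0.46, adjusted p = 0.690) to 0.09 without it.

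*Crybb1*, a basic beta crystallin that marks fiber cell differentiation, was at 32662, 41961 and 34513 in control libraries, at 31601, 29449 and 35799 in double KO libraries and at 11882, 30048 and 32659 in compound KO libraries. Control and double KO overlapped, with a log2 fold change of −0.17 (SE 0.14, 95% interval −0.52 to 0.18, adjusted p = 0.764, limma). Compound KO libraries lay below the controls, though the highest of them (32658.9) all but met the lowest control (32662.2). Their log2 fold change was −0.67 (SE 0.59, adjusted p = 0.581), and −0.21 without compound KO replicate 1.

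*Crybb3*, another basic member, was at 2975, 3936 and 2716 in control, 2609, 2600 and 2747 in double KO and 1099, 2270 and 2834 in compound KO libraries. The double KO libraries were close together, and the highest of them exceeded the lowest control. The log2 fold change was −0.26 (SE 0.14, 95% interval −0.61 to 0.10, adjusted p = 0.646, limma) in double KO and −0.72 (SE 0.39, adjusted p = 0.482) in compound KO against control lenses, the latter −0.32 without compound KO replicate 1.

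*Crybb2* was at 15.1, 21.2 and 14.0 in control, 16.6, 11.9 and 27.2 in double KO and 12.3, 12.7 and 9.10 in compound KO libraries. The double KO spread covered the whole control range, and the log2 fold change of 0.09 (SE 0.32, 95% interval −0.70 to 0.87, adjusted p = 0.960, limma) turned to −0.22 without double KO replicate 3 and to −0.03 without control replicate 3. The compound KO libraries lay below the controls, with a log2 fold change of −0.51 (SE 0.21, unadjusted p = 0.0506, adjusted p = 0.481, limma), and of −0.57 without compound KO replicate 1. Unlike the other members, it was not lowest in compound KO replicate 1.

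*Cryba4* was the most variable of the group. It was at 2193, 2870 and 1101 in control, 2164, 6278 and 2347 in double KO and 841.9, 1115 and 9250 in compound KO libraries. Within the compound KO group the highest value was 10.99 times the lowest, and the groups overlapped. The log2 fold change was 0.73 (SE 0.54, 95% interval −0.61 to 2.08, adjusted p = 0.734) in double KO against control lenses and 0.11 (SE 0.98, adjusted p = 0.963) in compound KO against control lenses. The latter was 0.75 without compound KO replicate 1 and −0.98 without compound KO replicate 3.

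For each member, the entry without a gene symbol that had the lowest Pearson correlation with it was sought. For *Cryba4*, among 45 entries without a symbol whose mean was at least 0.1 of that of *Cryba4*, this was an entry with r = −0.73 over the 9 libraries. It was at 9321, 11944 and 11661 in control, 3513, 9647 and 0 in compound KO and 8411, 2394 and 9697 in double KO libraries. It was listed at 0 in the library in which *Cryba4* was highest and was at 2394 in the library in which *Cryba4* was second. Over the 9 libraries the coefficient of variation was 89.9% for *Cryba4* and 28.1% for the sum of both, which lay at 13030 ± 1666 (SD, n = 3) in control, 8122 ± 3349 in compound KO and 10430 ± 1690 in double KO libraries. A lower variation of the sum follows in part from the choice of an entry with a low correlation. The same search gave r = −0.96 for *Crybb2* among 4305 entries (coefficient of variation 35.5% alone and 8.86% summed) and r = −0.74 for *Crybb3* among 59 (27.9% and 19.1%). The *Cryba4* entry was also the one found for *Cryba1* (r = 0.34 among 5), *Cryba2* (r = 0.29 among 10) and *Crybb1* (r = 0.52 among 6). The gene of the *Cryba4* entry is not named in the table, and whether its reads belong to *Cryba4* was not tested. For *Cryab* the entry had r = −0.56 among 92 and was the same entry as that found for *Crybb3*. With it added, the *Cryab* sums were 1649 to 2167 in double KO and 2546 to 3445 in control libraries. As the entry was chosen for its low correlation, these sums are a description and not a test.

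**Figure D4:**
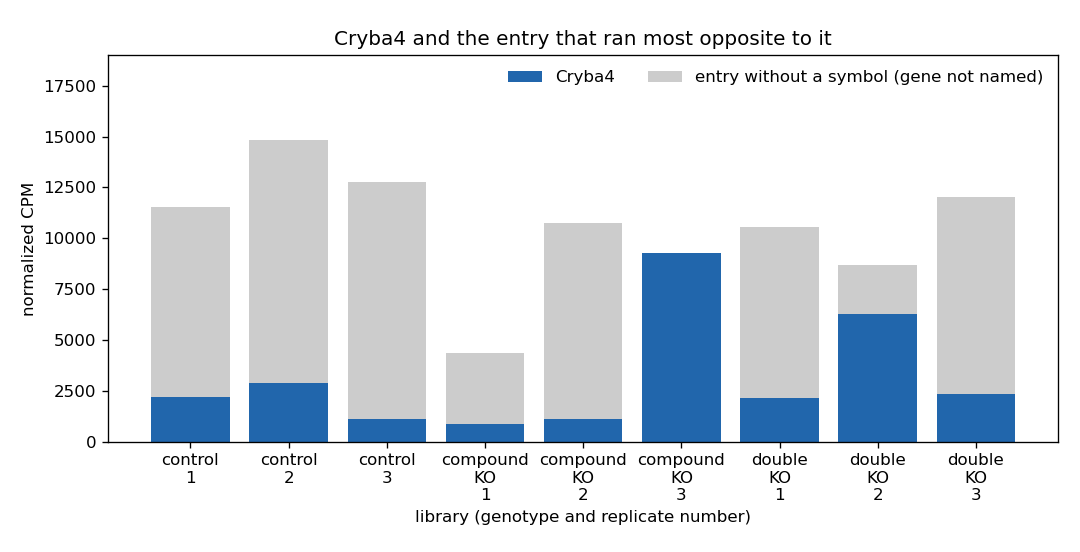
Normalized CPM of *Cryba4* (lower part of each bar) and of the symbol-less entry with the lowest correlation with it (upper part) in each of the 9 libraries. In compound KO replicate 3 *Cryba4* was at 9250 and the entry at 0, and in double KO replicate 2 they were at 6278 and 2394.

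Across the group, 4 of the 7 members had a log2 fold change below 0 in double KO against control lenses, as did 47.2% of all genes tested. The median was −0.17 for the members and 0.01 for all genes. In compound KO against control lenses, 6 of 7 were below 0 (48.0% of all genes), with a median of −0.63 against 0.02, and 4 of 7 lay below all controls, which 11.7% of all genes did (23.9% in either direction). Without compound KO replicate 1, the median of the members was −0.21 and 5 of 7 were below 0. In double KO against compound KO lenses all 7 were above 0 (50.8% of all genes were below), with a median of 0.51 against −0.01 for all genes, and none of their groups were without overlap, against 15.6% of all genes. Without compound KO replicate 1 that median was 0.04, with 2 of 7 below 0. None of the 7 was called in any comparison. Of all genes tested, 0% of 14348 were called between compound KO and control and 0.0139% of 14402 between double and compound KO lenses. The unadjusted threshold was met by *Cryab* in both comparisons with control (5.34% of all genes in compound KO, 1.53% with the compound KO lower), and no member did between the knockouts (3.06% of all genes).

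In compound KO replicate 1, the members other than *Crybb2* were at 0.287 to 0.410 of their control mean, with *Cryab* the lowest, and *Crybb2* was at 0.734. In that library *Maf*, 1 of the 18 regulators of crystallin genes listed, was at 363.6, against 875.7 to 1198 in the other 8 libraries. *Pax6*, another of them, was the highest of the 9 libraries there (162.7, against at most 149). Of the 18, 10 had a log2 fold change below 0 and 8 above 0 in compound KO against control lenses. The part of any regulator in the crystallin levels was not tested. The lower crystallin and fiber marker levels of this library and its higher levels of markers of other ocular tissues came together, and their part in the compound KO values was not tested.

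**Figure D5:**
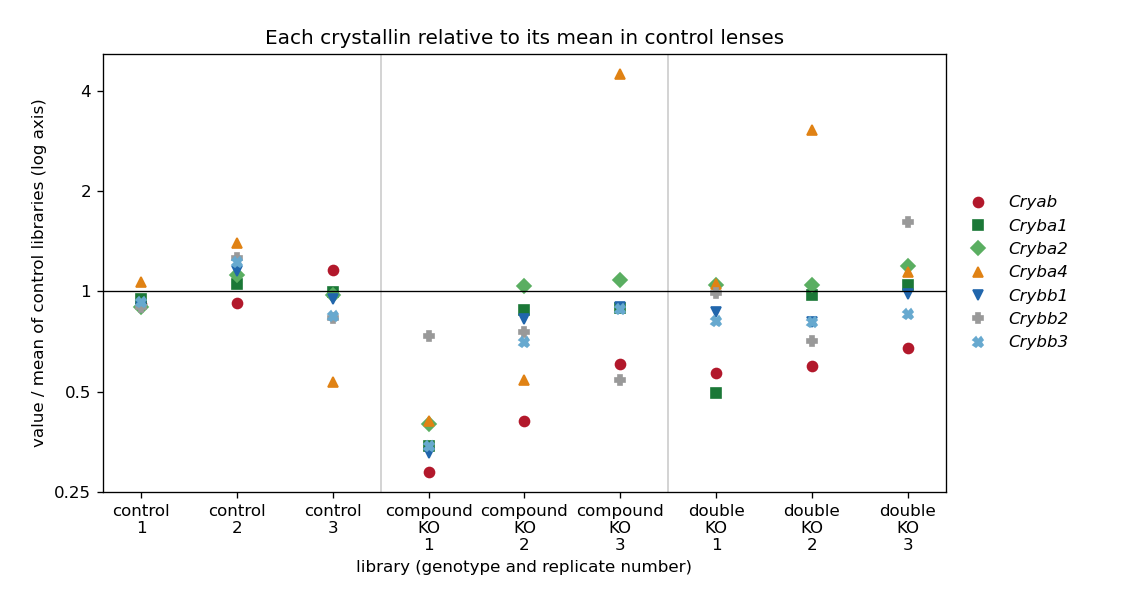
Value of each crystallin in each library divided by its mean in the 3 control libraries, on a log axis. In compound KO replicate 1 all 7 were below 1 (0.287 to 0.734), *Cryab* was between 0.287 and 0.678 in every knockout library, and *Cryba4* reached 4.50 in compound KO replicate 3 and 3.06 in double KO replicate 2.

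The median correlation between members was lower without that library. For the 6 pairs with *Crybb2* it was not lower (0.326 with that library and 0.334 without it). Over the 9 libraries, the Pearson correlation of log2 values between pairs of members had a median of 0.52 for 21 pairs, and of 0.29 without compound KO replicate 1. For the 10 pairs without *Cryba4* and *Crybb2*, it ranged from 0.61 to 0.97, and from −0.31 to 0.87 without that library. The highest in both cases was that of *Crybb1* with *Crybb3* (0.97 and 0.87). All values share the library's scaling, and these correlations describe the 9 libraries.

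The entries whose pattern over the 9 libraries was most like that of single members were sought among 8144 entries with a symbol and a mean of at least 10. For *Cryab* it was *Gm7292* (r = 0.99 over 9 libraries), which was also the most alike without compound KO replicate 1 (r = 0.99 over 8). It was *Lrsam1* for *Cryba1* (r = 0.97), *Sptan1* for *Cryba2* (r = 0.995), *Dcaf8* for *Cryba4* (r = 0.94), *Wnt7a* for *Crybb1* (r = 0.99) and *Gm11478* for *Crybb2* (r = 0.91). Without compound KO replicate 1 these became *Dlst*, *Sil1*, *Ctr9*, *Bfsp2* and *Heg1* in the same order. The mean of the members was most like *Kdsr*, *Emc1*, *Cryge*, *Letm1* and *Vim* (r = 0.98 to 0.99). High correlations follow in part from taking the highest among 8144 entries, and the 8 libraries are part of the same 9.

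Related gene groups were examined in the same fits. Of the 8 gamma crystallins, the other structural crystallins of fiber cells, 6 had a log2 fold change below 0 in double KO against control lenses, with a median of −0.31, and 3 lay below all controls, against 8.04% of all genes tested. In compound KO against control lenses 7 of 8 were below 0, with a median of −0.67, and without compound KO replicate 1 it was 6 of 8, with a median of −0.23. Among 18 regulators of crystallin genes, 10 were below 0 in each of these comparisons, with medians of −0.04 and −0.28, the latter −0.09 without compound KO replicate 1. *Maf* itself was at 1096 ± 89.1 (SD, n = 3) in control and 1042 ± 74.0 in double KO lenses. Of the other small heat shock proteins, 6 of the 8 listed were tested, and 5 were below 0 in double KO (median −0.35) and 4 in compound KO lenses (median −0.06, and −0.04 without compound KO replicate 1). None of the genes in these 3 lists passed the adjusted threshold in either comparison. It was passed by 0.361% of all genes tested in double KO and by 0% in compound KO against control lenses.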

How the data were processed

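The authors trimmed reads with Trimmomatic, aligned them to mm39 with HISAT2, counted transcripts with StringTie and dropped low entries in edgeR. The deposited values are a normalized signal: CPM that the authors scaled by a composition factor for each library and rounded to 1 decimal. Read counts were not used here, so a count model could not be run. Libraries were grouped by genotype as labelled. Each pair of genotypes was compared with limma 3.58.1 (R 4.3.3, intensity trend) after adding 1 and taking log2, over every entry with a symbol that reached 1 in 2 or more of the 6 libraries. The pseudocount draws differences of low genes such as *Crybb2* towards 0. P-values were two-sided with Benjamini-Hochberg adjustment across the whole fit. Calls needed an adjusted p not above 0.05 and 1.5-fold. The procedure was tested on simulated data. Of simulated differences of log2 size 1, it called 70.9% in double KO against control. It called 51% in compound KO against control and 45% in double against compound KO, so a gene not called may still differ. The members, marker lists, motifs and alternatives were chosen with earlier results of these data known. All members are named with every value, and entries alike by highest Pearson correlation (that for *Crybb3* is not reported here). Genomic positions come from GENCODE on GRCm39. Python 3.11.15 was used for summaries and plots.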

Additional observations from a re-analysis of the deposited data

How the results depend on the processing

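No member passed the adjusted threshold under any alternative: library size, upper quartile or non-crystallin scaling, no or a stricter filter, entries without a symbol tested, a pseudocount of 0.1, a single fit of all 9 libraries, a replicate block, summed symbols, no fold threshold or any library left out. The scaling to entries with a symbol other than crystallins was chosen after seeing the data. For *Cryab* in double KO against control lenses, the log2 fold change lay between −0.77 and −0.59 with libraries left out, and its adjusted p (limma) lay between 0.129 and 0.802 over all alternatives, the highest in the fit of all 9 libraries. In compound KO against control lenses it lay between −1.54 and −1.002. Of the 231 values under other alternatives none changed direction. Of 126 with a library left out, 8 did. They were *Crybb2* (−0.22 to 0.35), *Cryba1* (−0.52 to 0.0127) in double KO against control, *Cryba4* (−0.98 to 0.75) and *Cryba2* (−0.62 to 0.0940) in compound KO against control, and *Cryba1* (−0.16 to 0.64) and *Cryba4* (−0.0183 to 1.71) in double against compound KO lenses. The reversed values were, for *Crybb2*, −0.03 without control replicate 3 and −0.22 without double KO replicate 3, and for *Cryba1* 0.0127 without double KO replicate 1. For *Cryba4* in compound KO against control they were −0.29 without control replicate 3 and −0.98 without compound KO replicate 3. The other 3, of *Cryba2*, *Cryba1* and *Cryba4* (0.0940, −0.16 and −0.0183), came without compound KO replicate 1. The cause was not tested.

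Scaling by library size alone moved the median of all genes to 0.24 in compound KO against control and to −0.17 in double against compound KO lenses, and the members' medians to −0.37 and 0.32. Libraries with the same replicate number correlated by −0.106 to 0.216 after removal of group means. Whether they share a litter or batch is not given in the sources used here, and these correlations cannot decide it. With the replicate block, the log2 fold change of *Cryab* in double KO against control lenses was −0.70 with an adjusted p of 0.1604 (limma), and 10 genes in place of 51 were called. Over all genes tested, 94 were called in double KO against control with entries without a symbol, 21 in the fit of all 9 libraries and 22 to 47 with a library left out. In compound KO against control, 0 were called by limma, with 22, 2 and 0 to 13 in the same order, 13 without compound KO replicate 1. In double against compound KO lenses these counts were 14, 5 and 1 to 6 in place of 2, 0 with the block or with the stricter filter, and 1 with the pseudocount of 0.1. Depth is unknown, and 3 libraries per group keep an exact permutation p at 0.1 or above.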
